A study of Mus musculus with 4 samples.

Results

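Axon guidance genes were examined for chromatin accessibility in mouse fibroblasts that lack Rela or Kindlin-2. The set was defined by annotation alone: genes whose KEGG entries in the deposited Rela table include the axon guidance pathway and neither actin cytoskeleton regulation nor MAP kinase signalling, apart from Ephb6, Epha5, Ilk, Ptk2, Smad4 and solute carrier genes. It held 54 genes of 7224 named genes in the Rela table, with 62 of 28445 regions. By gene name, 13 of the 54 were also in the Kindlin-2 table, with 1 region each, of 5727 regions in all.

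Accessibility was measured by ATAC-seq, which uses a transposase (Tn5) to insert sequencing adapters into open chromatin and reads accessibility from the fragments recovered there. The 4 genotypes were Rela knockout and Rela wild-type cells of the 3T3 embryo fibroblast line, and Kindlin-2 knockout and Kindlin-2 floxed kidney fibroblasts, all at passages 15 to 20 in serum-containing medium. The product of Rela is p65, an NF-kB transcription factor subunit, and Kindlin-2 is a cytoplasmic partner of integrins that helps to activate them. The labels give neither how the alleles were removed nor whether a line is 1 clone. The authors deposited 1 value per region and genotype, a background-corrected, DESeq-normalized signal rounded to whole numbers, and differences between genotypes therefore lack a replicate check. Brackets hold exact 95% intervals of a ratio for counting error alone.

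Axon guidance is the process by which a growing nerve fibre is steered by attracting and repelling cues. Secreted or membrane-bound ligands of the netrin, Slit, semaphorin and ephrin families bind receptors of the DCC and UNC5, Robo, plexin and neuropilin, and Eph families. These receptors act through kinases, small GTPases and their regulators on actin and microtubules. The same families are used outside the nervous system, in fibroblasts among others, for cell sorting, contact repulsion and migration.

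The median region of the Rela table had a signal of 35 in Rela knockout and 34 in Rela wild-type cells, which corresponds to about 36.9 counts in knockout and 49.8 in wild-type cells. In the Kindlin-2 table the median was 16 in both genotypes, about 16 counts in knockout cells, whose depth is assumed, and 11.8 in floxed cells. Of 15 fibroblast markers, 10 had a region in the Rela table, and Col1a1, Col3a1, Dcn, Lum and Prrx1 had none. Summed over these 10 genes, the signal was 630 in Rela knockout and 523 in wild-type cells. Among them Fbln1 and S100a4 were more than 2-fold higher in knockout cells, and Dpt and 1 of 2 Col1a2 regions more than 2-fold lower. Of 11 neuronal markers only Map2 and Tubb3 had a region there. In the shallower Kindlin-2 table Fn1 was the 1 fibroblast marker with a region, with 12 in knockout and 26 in floxed cells, and the neuronal list had none. Endothelial markers had 0 regions in either table. In the Rela table the epithelial gene Krt19 held 19 in knockout and 8 in wild-type cells, and 2 of 4 leukocyte genes summed to 45 in knockout and 70 in wild-type cells. In the Kindlin-2 table the leukocyte gene Ptprc held 27 in knockout and 10 in floxed cells. The part of such cells in the results below was not tested. The 1 region of Rela itself, at its promoter, held 27 in Rela knockout and 21 in wild-type cells, and the labels do not say which part of the gene was removed. Fermt2, which encodes Kindlin-2, had 0 regions.

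Promoter sequences of the genes that the comparison turns on are printed here from RefSeq (build GRCm38.p6, the mm10 assembly), each running from 250 bases before to 50 bases after an annotated start, on the strand of the gene. The first 3 belong to genes whose region was at least 2-fold higher in Rela knockout cells and the next 2 to genes whose region was at least 2-fold lower. Met and Gsk3b lay within 2-fold at their starts. Met holds the AP-1 site described below, and Gsk3b was the strongest axon guidance region. Capitals mark CCAAT boxes (CCAAT or its reverse complement) and, in Met, an AP-1 site.
Slit3 (chr11:35121206-35121505, plus strand): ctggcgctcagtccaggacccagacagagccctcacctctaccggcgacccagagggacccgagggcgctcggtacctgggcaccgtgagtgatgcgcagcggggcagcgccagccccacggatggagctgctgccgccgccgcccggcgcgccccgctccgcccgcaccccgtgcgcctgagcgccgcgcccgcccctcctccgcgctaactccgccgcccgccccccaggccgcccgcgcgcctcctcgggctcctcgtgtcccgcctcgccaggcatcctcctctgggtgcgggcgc
Epha4 (chr1:77515039-77515338, minus strand): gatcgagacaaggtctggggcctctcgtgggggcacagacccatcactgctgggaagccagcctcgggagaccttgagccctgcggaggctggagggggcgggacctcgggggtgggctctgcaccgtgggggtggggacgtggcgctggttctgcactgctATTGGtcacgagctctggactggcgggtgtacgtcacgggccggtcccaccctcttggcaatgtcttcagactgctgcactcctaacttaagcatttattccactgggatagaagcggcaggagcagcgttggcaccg
Robo2 (chr16:74411776-74412075, minus strand): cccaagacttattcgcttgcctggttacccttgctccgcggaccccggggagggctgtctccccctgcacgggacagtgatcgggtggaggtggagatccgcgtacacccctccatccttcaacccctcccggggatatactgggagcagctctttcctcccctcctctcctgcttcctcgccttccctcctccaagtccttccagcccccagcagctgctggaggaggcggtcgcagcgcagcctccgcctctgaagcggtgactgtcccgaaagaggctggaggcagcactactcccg
Fyn (chr10:39369549-39369848, plus strand): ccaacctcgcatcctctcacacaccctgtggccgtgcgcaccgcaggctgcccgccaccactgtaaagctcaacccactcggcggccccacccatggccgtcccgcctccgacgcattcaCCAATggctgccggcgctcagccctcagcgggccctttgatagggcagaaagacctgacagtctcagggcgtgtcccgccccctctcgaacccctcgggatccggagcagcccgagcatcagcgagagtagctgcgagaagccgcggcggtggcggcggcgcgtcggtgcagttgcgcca
Plxna2 (chr1:194619579-194619878, plus strand): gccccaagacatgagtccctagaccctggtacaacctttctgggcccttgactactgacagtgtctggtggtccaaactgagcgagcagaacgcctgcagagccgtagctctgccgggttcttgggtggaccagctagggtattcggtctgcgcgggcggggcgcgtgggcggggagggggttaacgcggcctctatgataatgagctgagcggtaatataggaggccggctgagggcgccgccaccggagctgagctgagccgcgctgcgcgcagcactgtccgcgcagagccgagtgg
Met (chr6:17463707-17464006, plus strand): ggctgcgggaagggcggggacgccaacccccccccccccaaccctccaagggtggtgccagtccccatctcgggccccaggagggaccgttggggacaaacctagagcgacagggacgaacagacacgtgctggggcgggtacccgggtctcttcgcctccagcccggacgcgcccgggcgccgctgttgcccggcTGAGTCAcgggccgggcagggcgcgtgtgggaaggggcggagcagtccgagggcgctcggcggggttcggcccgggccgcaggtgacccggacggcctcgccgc
Gsk3b (chr16:38088751-38089050, plus strand): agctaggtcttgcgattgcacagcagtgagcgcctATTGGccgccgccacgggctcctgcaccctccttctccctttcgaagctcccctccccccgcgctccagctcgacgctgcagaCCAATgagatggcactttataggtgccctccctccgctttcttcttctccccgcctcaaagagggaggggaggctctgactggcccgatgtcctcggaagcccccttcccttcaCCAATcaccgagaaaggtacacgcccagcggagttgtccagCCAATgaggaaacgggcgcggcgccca

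All 7 windows were rich in CG dinucleotides, from 17 in Epha4 and Robo2 to 41 in Slit3. The Slit3 window overlapped its region only in part, since the RefSeq start lies downstream of the start in the deposited table. In Fyn and Plxna2 the RefSeq start lies inside the region, although the table counts the region's distance from a start farther upstream. Of the 54 genes, 46 had a RefSeq window and 33 a window that overlapped a region of their own gene. Over these 33 the median was 23 CG dinucleotides and 66.7% G or C. Over the 4499 genes of the Rela table with such an overlap it was 23 and 62.7%, against 7 and 52.7% over all 32851 windows. Accessible axon guidance promoters were thus about as CG-rich as other accessible promoters. The search for motifs covered both strands. The NF-kB consensus was in 0 of the 33 windows, against 4.89% of the 4499 and 4.51% of all windows. Counting all 61 windows of the 46 genes, alternative starts included, it was in 4 (6.56%), those of Sema4a, Sema4c, Sema6c and Efna2, none of which overlapped a region of its gene. An AP-1 site (TGANTCA) was in 1 of 33, that of Met, against 5.07% of the 4499 and 7.81% of all. A CCAAT box was in 11 of 33, or 33.3%, against 46.1% of the 4499 and 37.4% of all windows. A match, or its lack, describes these letters only.

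The comparison of Rela knockout with Rela wild-type cells asked how accessibility differs without p65. Most axon guidance regions lay within 2-fold. Slit3, a secreted Slit ligand, and Epha4, an Eph receptor, were the most elevated in the knockout. Ngef and Ephb3 were among the lowest ratios. A region counts as past 2-fold where log2((knockout + 1)/(wild type + 1)) was at least 1 in size. By this rule 5 of 62 regions, in 4 genes, were higher in Rela knockout cells, or 8.06%, against 22.4% of the 28332 regions with a mean signal of at least 1. In the other direction 12 regions, in 11 genes, were lower, or 19.4%, against 21% of all regions. In either direction the share was 27.4%, against 43.3% of all regions. Most of the 62 were promoter regions, with a centre within 2500 bp of the start of their gene. In these 53 the share was 24.5%, against 26.1% of all promoter regions. The median log2 ratio was -0.05 over the axon guidance regions and 0.00 over all regions. No test was possible with 1 value per genotype, and a change in the share of cells with an open region cannot be told apart from a change within each cell.

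**Figure D1:**
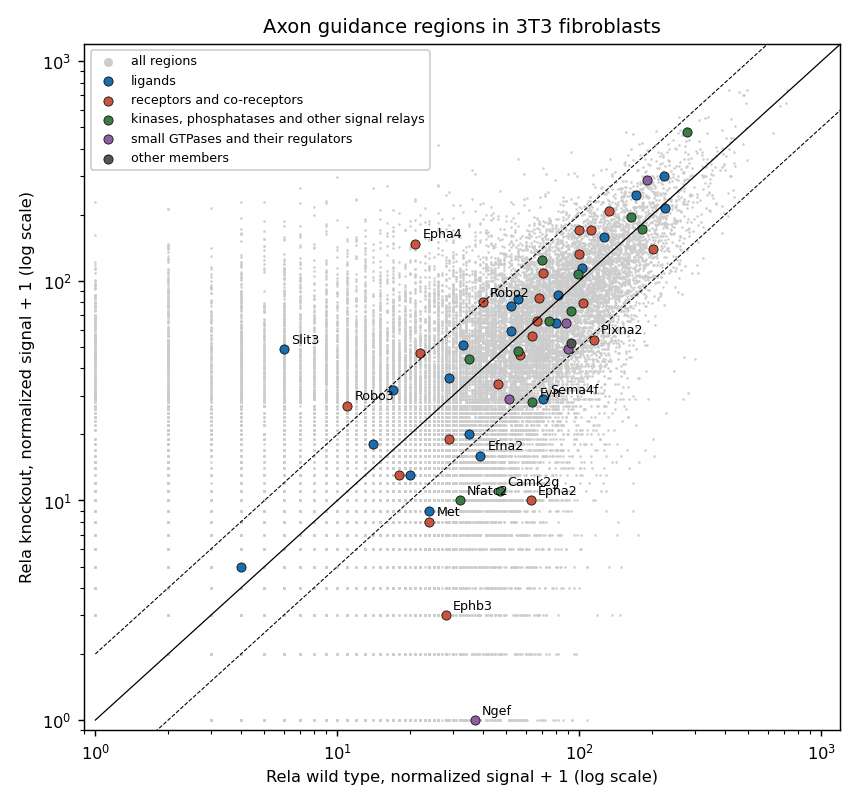
Normalized signal plus 1 of each region in Rela knockout cells (vertical axis, log scale) against Rela wild-type cells (horizontal axis, log scale); grey points are all regions, coloured points 61 of the 62 axon guidance regions by role, the solid line marks equal signal and the dashed lines 2-fold. Most axon guidance points sit between the dashed lines, with Slit3 and Epha4 above and Ngef and Ephb3 below them.

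The share past 2-fold differed with signal and with position. Axon guidance regions were stronger than most, with 31 of 62 in the strongest of 4 equal signal groups, into which all regions were divided by mean signal, and a median mean signal of 61.2, against 35 over all regions. They were also wider, with a median of 510 bp against 397 bp. Among promoter regions alone the gaps were smaller. The axon guidance promoters had a median mean signal of 68.5, against 52.5 over all promoter regions, and a median width of 586 bp, against 512 bp. In the strongest signal group 2 of 31 axon guidance regions were past 2-fold in either direction (6.45%), against 21.2% of all regions there. In the next weaker group it was 4 of 12 (33.3%), against 39.2%, and in the one below 4 of 8 (50%), against 52.7%. In the weakest group 7 of 11 were past 2-fold (63.6%), against 60.5%. Of these 11 regions 6 were lower in Rela knockout cells (54.5%), against 31.7% of all regions of that group. The signal groups were not split by position, although 53 of the 62 axon guidance regions were promoter regions. In either direction 26.1% of all promoter regions were past 2-fold, against 43.3% of all regions. The gap in the strongest group was therefore not separated from position.

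**Figure D2:**
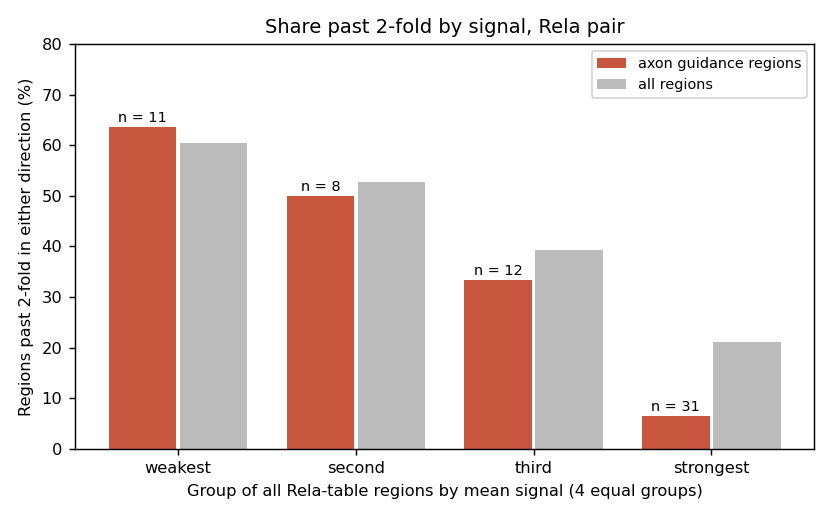
Percentage of regions past 2-fold in either direction (vertical axis) in each of 4 equal groups of all Rela-table regions by mean signal (horizontal axis), for axon guidance regions (red, with their number) and for all regions (grey). The share falls with signal in both, to 6.45% of axon guidance regions and 21.2% of all regions in the strongest group. The groups are not matched for distance from the start of a gene.

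Promoter regions, with a centre within 2500 bp of the start of their gene, made up 53 of the 62. Of these, 5 were higher in Rela knockout cells (9.43%, against 13% of all promoter regions) and 8 were lower (15.1%, against 13.1%). Of the 9 regions farther away 0 were higher (against 21.9% of all such regions) and 4 were lower (44.4%, against 21.7%). The 12 regions that were lower had a median distance of 2218 bp from the start, against 161 bp for the 5 that were higher and 186 bp for those within 2-fold. By the starts of the table, 1 of the 12 lower regions covered the start, 6 lay upstream and 5 downstream of it. Among those downstream, the Fyn and Plxna2 regions hold a RefSeq start. Of the 45 regions within 2-fold 28 covered the start. These distances and positions were not computed over all regions.

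**Figure D3:**
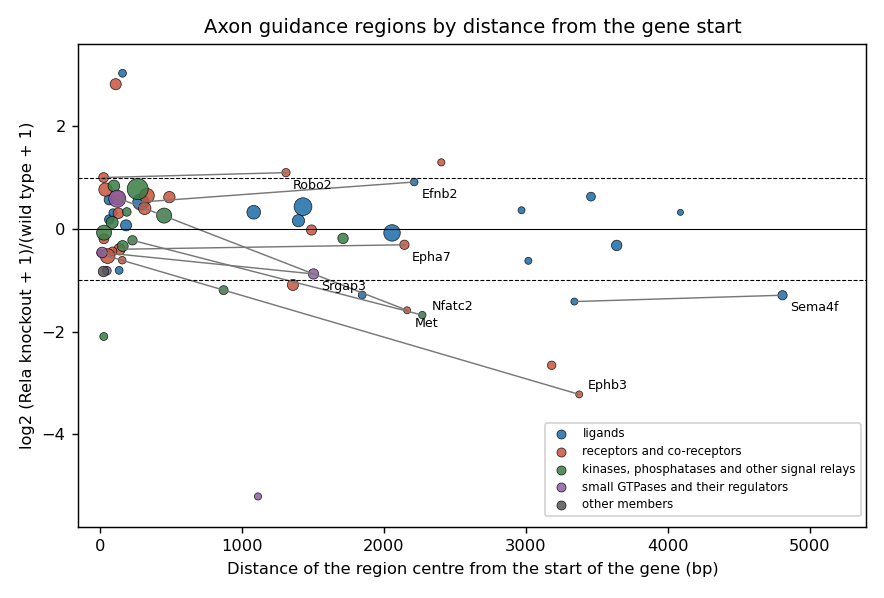
The log2 ratio of Rela knockout over wild type (vertical axis) against the distance of the region's centre from the start of its gene (horizontal axis, bp) for 61 of the 62 regions, with points coloured by role and sized by mean signal, lines joining the regions of genes with 2 regions, and dashed lines at 2-fold. Near the start most points lie within 2-fold, and the weaker distal regions of Met, Nfatc2 and Ephb3 lie below their stronger regions near the start.

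The counts by role and family that follow rest on few regions. Among all regions 22.4% were higher and 21% lower, and among all promoter regions 13% and 13.1%. Whether a role differs from these shares was not tested. Among ligands, 1 of 21 regions, in 19 genes, was higher in Rela knockout cells, 3 were lower and 17 lay within 2-fold, with a median log2 ratio of 0.31. Slit3 encodes one of the Slit proteins that repel axons through Robo receptors. Its promoter region (chr11:35120847-35121279, 161 bp from the start) held 48 in Rela knockout and 5 in wild-type cells, a 9.6-fold difference (4.57 to 26.4) and a log2 ratio of 3.03. The log2 ratio was 2.41 with a pseudocount of 5 and 2.26 once the median of the 50 nearest regions was subtracted. The other Slit gene with a region, Slit2, held 58 in knockout and 51 in wild-type cells.

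Semaphorins, cues that bind plexins and neuropilins, had 11 regions in 10 genes, 0 higher and 2 lower, both in Sema4f, a membrane-bound class 4 semaphorin. The Sema4f region 4809 bp from the start held 28 in Rela knockout and 70 in wild-type cells, a 2.5-fold lower signal (1.61 to 3.81). That at 3343 bp held 8 in knockout and 23 in wild-type cells (log2 ratio -1.42). Both lay downstream of the start, and no region covered the start itself. The strongest semaphorin region, of Sema5a, held 300 in knockout and 222 in wild-type cells, and that of the secreted Sema3c held 158 in knockout and 126 in wild-type cells. The other semaphorin genes, Sema3b, Sema3d, Sema3e, Sema4a, Sema4c, Sema6a and Sema6c, had log2 ratios from -0.81 for Sema3e to 0.57 for Sema6c.

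Ephrins are membrane-bound ligands of Eph receptors, ephrin-As on a lipid anchor and ephrin-Bs with a transmembrane segment. Of their 6 regions in 5 genes, 1 was lower and 0 were higher in Rela knockout cells. The Efna2 region, 1849 bp upstream of the start, held 15 in knockout and 38 in wild-type cells, 2.53-fold lower (1.42 to 4.70). Its log2 ratio of -1.29 was -0.70 relative to the median of chromosome 10 and -0.67 relative to its 50 nearest regions. Efnb2 came near 2-fold in the other direction at its weaker region, with 31 in knockout and 16 in wild-type cells (log2 ratio 0.91), while its start held 246 in knockout and 171 in wild-type cells (0.52). Relative to the chromosome's median these log2 ratios were 0.30 and -0.09, and relative to the 50 nearest regions -0.20 and -0.59. Efna5 held 214 in knockout and 226 in wild-type cells. Among the other ligands, Wnt5a, which also signals in fibroblasts, held 12 in knockout and 19 in wild-type cells, and Lrrc4, a netrin-G ligand, 17 in knockout and 13 in wild-type cells.

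Receptors and co-receptors had 22 regions in 18 genes, of which 4 were higher in Rela knockout cells, 4 were lower and 14 lay within 2-fold, with a median log2 ratio of -0.11. Epha4 encodes an Eph receptor that binds both ephrin classes. Its region (chr1:77513347-77516602), 3255 bp wide over the start, held 147 in Rela knockout and 20 in wild-type cells, 7.35-fold higher (4.97 to 11.5). Relative to the 50 nearest regions the log2 ratio of 2.82 became 2.10. It was the 1 of 31 axon guidance regions in the strongest signal group that was higher past 2-fold.

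The other Eph receptors differed in direction. Epha2, which binds ephrin-As, had a region 3183 bp upstream of its start with 9 in Rela knockout and 62 in wild-type cells, 6.89-fold lower (3.67 to 16.4). Ephb3, a receptor for ephrin-Bs, held 2 in knockout and 27 in wild-type cells at 3377 bp downstream, a 13.5-fold lower signal (3.73 to 123). At its start it held 139 in knockout and 201 in wild-type cells. With a pseudocount of 5 the log2 ratio of the downstream Ephb3 region was -2.19 in place of -3.22. Epha7 and Ephb4 lay within 2-fold, with 78 and 55 in knockout cells at their starts, against 103 and 63 in wild-type cells. Over the Eph receptors of the set, 1 of 7 regions was thus higher and 2 were lower. This count leaves out Epha5 and Ephb6, which were dropped by name and were both higher past 2-fold. None of the 5 lower pathway genes outside the set was an Eph receptor.

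Robo receptors bind Slits, with Robo3 a divergent member known for its part in midline crossing. Robo2 held 79 in Rela knockout and 39 in wild-type cells at its start, 2.03-fold higher (1.43 to 2.89). At 1312 bp upstream it held 46 in knockout and 21 in wild-type cells, 2.19-fold higher (1.34 to 3.50). Both stand close to the threshold, with log2 ratios of 1 and 1.10, and both were within 2-fold with a pseudocount of 5 (0.93 and 0.97). Around Robo2, 31 of the 50 nearest regions, spread over 6.45 Mb of chromosome 16, were also higher past 2-fold, with a median of 1.71, so that relative to them the ratios turned to -0.71 and -0.61. The Robo3 region, 2406 bp downstream of its start, held 26 in knockout and 10 in wild-type cells, 2.6-fold higher (1.28 to 5.06). Robo1, also on chromosome 16, held 131 in knockout and 99 in wild-type cells. Its 50 nearest regions had a median of 1.73, and relative to them its log2 ratio of 0.40 turned to -1.33.

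Plexin A2, a receptor for semaphorins, had a region 1361 bp downstream of the start of Plxna2 with 53 in Rela knockout and 114 in wild-type cells, 2.15-fold lower (1.58 to 2.96). Of its 50 nearest regions 16 were lower past 2-fold, and relative to their median the log2 ratio of -1.09 was -0.35. The other plexin and neuropilin regions of the set, at Plxna3, Plxnb2 and Nrp1, were within 2-fold. The neuropilin gene Nrp2, outside the set, had a region lower past 2-fold. Nrp1, a co-receptor for secreted semaphorins, held 207 in knockout and 132 in wild-type cells. Met, the receptor for hepatocyte growth factor, differed within the gene: its start held 169 in knockout and 111 in wild-type cells, and a region 2165 bp upstream held 7 in knockout and 23 in wild-type cells, 3.29-fold lower (1.53 to 9.34). The netrin receptor genes Unc5b and Unc5c held 12 and 169 in knockout cells, against 17 and 99 in wild-type cells. Smo and Boc, which act in hedgehog signalling, had log2 ratios of -0.44 and 0.62, and the channel gene Trpc1 had 0.30.

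Of 12 regions of kinases, phosphatases and other relays, in 11 genes, 0 were higher in Rela knockout cells, 3 were lower and 9 lay within 2-fold. With 12 regions these counts were not tested against the 22.4% higher and 21% lower of all regions. Camk2g, which encodes the gamma subunit of the calcium- and calmodulin-dependent kinase CaMKII, held 10 in Rela knockout and 46 in wild-type cells, 4.6-fold lower (2.30 to 9.20). By the starts of the deposited table it was the 1 of 12 lower regions that covered a start (chr14:20793864-20794370). Camk2d, for the delta subunit, held 194 in knockout and 162 in wild-type cells. Nfatc2, a calcineurin-activated transcription factor, held 9 in knockout and 31 in wild-type cells at 2272 bp upstream, 3.44-fold lower (1.74 to 8.37). Nearer its start it held 47 in knockout and 55 in wild-type cells.

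Fyn, a Src-family kinase that relays signals of several guidance receptors, held 27 in Rela knockout and 63 in wild-type cells, 2.33-fold lower (1.53 to 3.75). Its surroundings were low as well: 29 of the 50 nearest regions, over 4.18 Mb of chromosome 10, were lower past 2-fold. The log2 ratio of -1.19 was -0.61 relative to the chromosome's median of -0.58 and 0.17 relative to these neighbours. Gsk3b, the kinase GSK-3 beta, was the strongest axon guidance region, with 475 in knockout and 277 in wild-type cells, a ratio of 1.71 (1.5 to 1.96). The polarity gene Pard6a held 124 in knockout and 69 in wild-type cells, among the nearest to 2-fold from within (log2 ratio 0.84). Nck1, an adaptor between receptors and actin, held 171 in knockout and 180 in wild-type cells. Abl1, Plcg1, Gnai2 and Nfatc4 had log2 ratios between -0.33 and 0.33.

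Small GTPases and their regulators had 5 regions in 4 genes, with 1 lower and 0 higher. Ngef encodes ephexin-1, an exchange factor for small GTPases that acts downstream of EphA4. Its region, 1115 bp upstream of the start (chr1:87574845-87575124), held 0 in Rela knockout and 36 in wild-type cells. Against a floor of 3 counts for the knockout value this was at least 12.6-fold lower, taking the wild-type value without its own counting error. The log2 ratio of -5.21 depends on the pseudocount and was -3.04 with a pseudocount of 5. Srgap2, one of the GTPase-activating proteins that bind Robo tails, held 286 in knockout and 190 in wild-type cells. Srgap3, a relative, held 63 in knockout and 87 in wild-type cells at its start (log2 ratio -0.46). At 1506 bp upstream it held 48 in knockout and 89 in wild-type cells (log2 ratio -0.88). Rnd1, a small GTPase that binds plexins, held 28 in knockout and 50 in wild-type cells.

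Pdk1, which encodes a kinase of pyruvate dehydrogenase and carries the pathway annotation, held 51 in Rela knockout and 91 in wild-type cells.

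**Figure D4:**
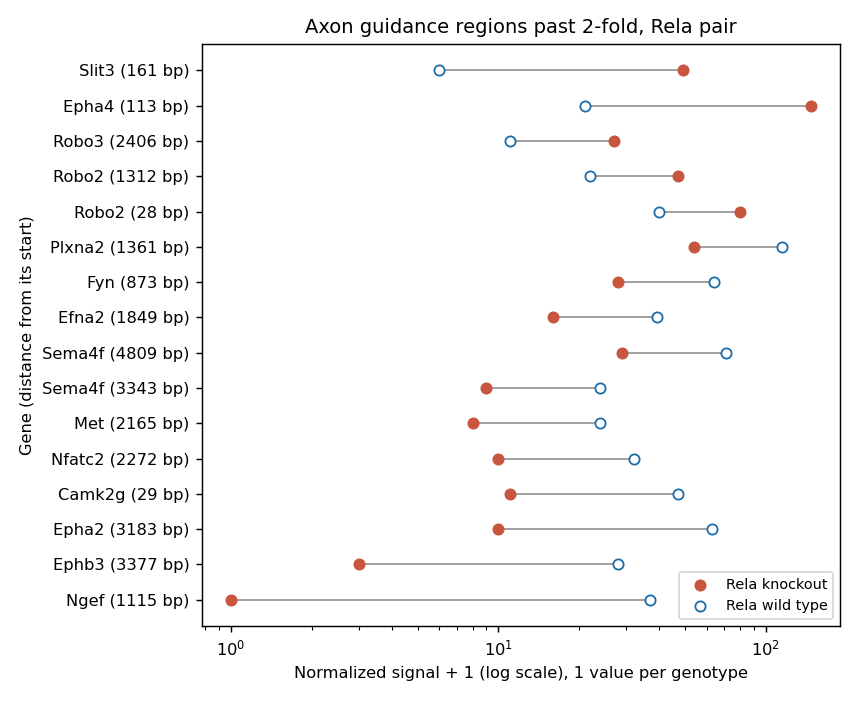
Normalized signal plus 1 (horizontal axis, log scale) in Rela knockout (filled) and Rela wild-type cells (open) for 16 of the 17 axon guidance regions past 2-fold (vertical axis, gene and distance from its start), with a line joining the values of 1 region. The 5 higher regions are at the top, led by Slit3, and the 11 lower ones shown end with Ngef, at 0 in the knockout.

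All 17 regions past 2-fold had a counting interval that did not reach a ratio of 1, 5 higher and 12 lower. Among all regions 21.4% were higher and 20.1% lower by the same rule. These intervals do not cover the spread between cultures.

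Within genes, 8 of the 54 had 2 regions in the Rela table. In 3 of them, Met, Nfatc2 and Ephb3, the weaker and more distant region was lower past 2-fold in Rela knockout cells while the region at or near the start was within 2-fold. The weaker region was lower and the stronger within 2-fold in 17.9% of all 676 genes with 2 regions. In 13.2% of them the weaker region was higher and the stronger within 2-fold. In Robo2 both regions were higher and in Sema4f both were lower. Epha7, Efnb2 and Srgap3 had both regions within 2-fold. The weaker region had the lower log2 ratio in 5 of 8 genes, with the gap widest in Ephb3 (-2.69 on the log2 scale) and Met (-2.19). This count was not made over all genes with 2 regions.

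By annotation, axon guidance was the only KEGG pathway of 31 genes, of which 9 had a region past 2-fold, and 23 genes carried other pathways, of which 6 had one. Of all 7217 named genes 27% had a region past 2-fold, so both counts stand near the background. The pathway genes left out by the definition, 28 genes with 31 regions in the Rela table, had 4 higher and 5 lower regions and a median log2 ratio of -0.06. Of 210 genes listed by role from knowledge of the pathway, 53 belonged to the set. Another 47 had 56 regions, 5 higher and 9 lower. Among all regions 22.4% were higher and 21% lower, and among all promoter regions 13% and 13.1%. The counts for genes outside the set were not split by position.

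The comparison of Kindlin-2 knockout with Kindlin-2 floxed kidney fibroblasts asked the same without the integrin adaptor. None of the 13 axon guidance regions was past 2-fold, so 0 were higher and 0 lower, against 16.2% higher and 9.27% lower among all 5727 regions. This count rests on the pseudocount at Met, which had a ratio of exactly 0.5 before 1 was added to both values. All 13 were promoter regions, and among all promoter regions 9.06% were higher and 10.6% lower. The median log2 ratio was -0.29, against -0.15 over all promoter regions and 0.00 over all regions. The background changed with signal. In the weakest of 4 equal signal groups 39.8% of all regions were higher and 3.77% lower, with a median log2 ratio of 0.70. In the strongest group 2.79% were higher and 15.2% lower, with a median of -0.35. The weakest and the strongest group each held 4 of the 13 axon guidance regions, with medians of -0.33 and -0.39. Of the 54 genes 24.1% had a region in this table, against 31% of all named genes of the Rela table. Neither Slit3, the Robo genes, Epha4 nor Ngef was among them.

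Met stood nearest to 2-fold. Its promoter region (chr6:17463895-17464511) held 24 in Kindlin-2 knockout and 48 in floxed cells, a ratio of 0.5 (0.287 to 0.871) and a log2 ratio of -0.97. Its interval was the 1 of 13 that did not reach 1, against 18.4% of all regions of the table. Relative to the 50 nearest regions the Met log2 ratio was -1.15, but it was -0.72 under quantile and -0.66 under loess scaling. Met lay in the strongest signal group of the table, where 15.2% of all regions were lower past 2-fold and 2.79% higher. In the 3T3 pair the overlapping Met region had the opposite direction, with a ratio of 1.52 (1.22 to 1.89) for Rela knockout over wild type. Whether the 2 knockouts differ in this could not be tested.

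**Figure D5:**
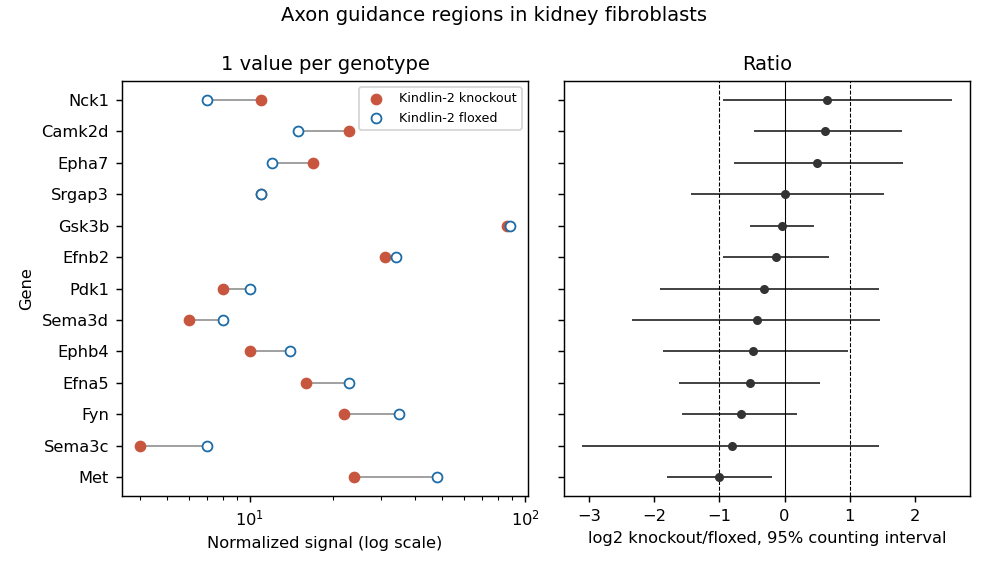
Left, normalized signal (log scale) of the 13 axon guidance regions in Kindlin-2 knockout (filled) and Kindlin-2 floxed cells (open); right, the log2 ratio of knockout over floxed without a pseudocount, with its exact 95% interval for counting error and dashed lines at 2-fold. Met is lowest, at 24 in knockout and 48 in floxed cells, and the other 12 intervals reach a ratio of 1.

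Among the relays, Gsk3b held 86 in Kindlin-2 knockout and 88 in floxed cells, a ratio of 0.977 (0.696 to 1.36), the narrowest interval of the 13. That interval does not cover the scaling: the Gsk3b log2 ratio of -0.03 was 0.60 under quantile and 0.51 under loess scaling. Fyn held 22 in knockout and 35 in floxed cells, and its interval reached 1 (lower limit 0.336). Camk2d held 23 in knockout and 15 in floxed cells, and Nck1 held 11 in knockout and 7 in floxed cells. Relative to the median of chromosome 9, the log2 ratio of Nck1 was 1 in place of 0.58.

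The 4 ligand regions had less signal in Kindlin-2 knockout cells, and each of these 4 intervals reached 1. Of all 13 regions 9 had less signal in the knockout. The same share was not counted over all promoter regions, whose median log2 ratio was -0.15. The ephrin genes Efnb2 and Efna5 held 31 and 16 in knockout cells, against 34 and 23 in floxed cells. The Efnb2 log2 ratio of -0.13 turned to between 0.15 and 0.22 under quantile or loess scaling and when centred on the chromosome or on neighbours. Sema3c held 4 in knockout and 7 in floxed cells and Sema3d 6 in knockout and 8 in floxed cells, with intervals (0.117 to 2.73 and 0.196 to 2.75) that took in a 2-fold difference either way. Both semaphorin genes passed 2-fold on the lower side under quantile scaling (log2 ratios -1.66 and -1.22) and loess scaling (-2.01 and -1.17). The Eph receptor genes Epha7 and Ephb4 held 17 and 10 in knockout cells, against 12 and 14 in floxed cells. Srgap3 held 11 in both genotypes, and Pdk1 held 8 in knockout and 10 in floxed cells. Among the other pathway genes, 12 had a region in this table, 1 lower and 0 higher.

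Each of the 13 regions overlapped a region of the same gene in the Rela table. The knockout-over-control ratio had the same sign in both tables at 5 of them and the opposite sign at 7, with Srgap3 at a ratio of 1 in the Kindlin-2 pair. Except at Met, the Kindlin-2 intervals all reached 1, and signs were not counted over all overlapping regions. The counts of 5 and 7 are therefore no measure of agreement between the knockouts. Fyn had log2 ratios of -1.19 in the Rela pair and -0.65 in the Kindlin-2 pair. The tables were normalized separately, so their levels were not set against each other.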

How the data were processed

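ATAC-seq values of 4 genotypes were used as deposited. The submitters' processing notes list FastQC, Trimmomatic 0.33, STAR 2.4.2a and Picard 1.136, then DESeq2, MACS2, bedtools and deepTools, with no role or order, and the build mm10. Read shifting, duplicate handling and region calling: not given in the sources used here. Per the labels' name of each table, the authors made the deposited values, a score, by background correction and DESeq normalization within the table, with 1 column per genotype. The design text gives 2 biological replicates per genotype; how they were combined is not stated, and whether starts count from 0 or 1 is not stated either.

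From these, log2((knockout + 1)/(control + 1)) was computed for regions with a mean of at least 1, which kept every axon guidance region (Python 3.11.15, pandas 2.3.3, SciPy 1.17.1, statsmodels 0.14.6). A whole count times a fixed factor, rounded, leaves some whole values rare; the factor that explained most of this was 0.949 for Rela knockout (90.3% of the deviance), 0.683 for Rela wild type (98%) and 1.36 for Kindlin-2 floxed (97.5%). No factor explained more than 21.7% for Kindlin-2 knockout, which was given a factor of 1, so its intervals rest on an assumed depth. Implied counts gave Clopper-Pearson 95% intervals, which cover counting error only and not the background correction; for a value of 0, 3 counts per library served as the floor. The code was tested on simulated data. The named genes were, per role, up to 6 genes past 2-fold in each direction, the 3 strongest regions within 2-fold, the 3 regions nearest to 2-fold on either side, genes with regions in both tables and all Kindlin-2 regions; other genes are given by values for completeness. The values of 1 gene are not reported here, though the counts include it. The members, role lists and rules were chosen with earlier results of these data known.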

Additional observations from a re-analysis of the deposited data

How the results depend on the processing

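In the Rela pair the 5 higher regions, all promoters, became 3 with a pseudocount of 5 and 3 when centred on the 50 nearest regions, and stayed at 4 or 5 without a filter, with a mean signal of at least 10, under quantile or loess scaling, centred on chromosomes, and with 1 region per gene. The count of lower regions, 12, ran from 8 with 1 region per gene to 12, and that of lower promoters from 6 to 8. Centring on neighbours reversed Fyn (0.17) and both Robo2 regions (-0.71 and -0.61). Of the 45 regions within 2-fold it turned the sign of 17, and Robo1 (-1.33) and Sema3e (-1.16) became lower past 2-fold; centring on chromosomes turned 7 and loess scaling 1. For these regions the part of neighbouring chromatin or copy number was not tested. In the Kindlin-2 pair, where 0 regions passed, 1 (Nck1) was higher when chromosomes were centred, 2 (Sema3c and Sema3d) were lower under quantile scaling and 2 under loess scaling, and 1 (Met) was lower when centred on neighbours; promoter counts were the same. The median log2 ratio lay between -0.16 and 0.10 in the Rela pair and between -0.44 and -0.13 in the Kindlin-2 pair. No paired analysis was possible because each genotype has 1 value. At the Kindlin-2 depth 12 of 13 counting intervals reached a ratio of 1, so differences within them were not detectable.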
